A study of Rattus norvegicus with 4 samples.

Results

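The kinesin genes of neonatal rat ventricular myocytes are described here across 4 RNA-seq libraries. Kinesins are motor proteins that use ATP to walk along microtubules or to take microtubule ends apart. One set works in cell division, where it builds the spindle, moves chromosomes and completes the separation of daughter cells, and it is made mainly in cells that are cycling. Another set carries mitochondria, vesicles and ciliary cargo in resting cells. Heart muscle cells stop dividing soon after birth, whereas other cells of a ventricular culture, such as fibroblasts, can go on dividing.

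The members were chosen by gene name, as Kif followed by a digit or as Kifc1, Kifc2 or Kifc3, which gave 32 of the 17147 gene names in the table. Of the 12 genes counted as mitotic kinesins, 10 were analysed, and Kif4a and Kif14 were not analysed here. The remaining 22 are called the other kinesins, because they include ciliary, microtubule-shortening and signalling members besides cargo carriers. The division was proposed with earlier results of this comparison known. Counts of changed members are therefore descriptions of these libraries and support nothing by themselves.

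The cells are primary cells of newborn rats with a left ventricle source, cultured in DMEM with the supplement nutridoma and no serum. The treated group (2 libraries) received TMP195, a small molecule that occupies the catalytic site of class IIa histone deacetylases, at 3 µM for 48 h, and the vehicle group (2 libraries) received DMSO for 48 h. The sources name neither the strain nor the sex of the animals, and they do not say whether libraries of a group came from separate cultures. The p-values thus reflect differences among libraries that could be technical in origin. With 2 libraries against 2, an exact two-sided permutation test cannot give a p below 0.333, so the p-values come from limma fitted across 12689 genes. In that fit a gene's own spread gave 2 degrees of freedom, and the spread of other genes gave 27.4. A small p-value thus rests mostly on variance borrowed from other genes.

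The deposited values are estimated fragments per gene, scaled by the authors by a factor close to 1 in each library, so that a value of 100 rests on about 100 fragments. The libraries held between 11768452 and 14232152 fragments. Heart muscle genes were abundant in all libraries, with a value of Myh6, the alpha myosin heavy chain, between 74333 and 77631. Levels are compared between genes only as FPKM, which is per length, from the authors' deposited table of 26 of the 32 kinesins.

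Transport motors made up most of the kinesin transcripts. Kif5b, the widely expressed heavy chain of conventional kinesin, which carries mitochondria among other cargo, had the highest level, at 206 ± 17.5 FPKM in vehicle libraries (SD, n = 2). Kif1c, which carries secretory vesicles and mRNA, followed at 89.1 ± 5.33 FPKM, then Kif1b, a carrier of mitochondria and vesicles, at 72.4 ± 0.15 FPKM, and Kif13a, which carries receptors out to recycling endosomes, at 51.3 ± 1.51 FPKM. These 4 genes held 77.2% of the summed vehicle FPKM of the 26 kinesins. Next came Kif2a, which shortens microtubules, at 14.2 ± 0.148 FPKM and Kif3a, a motor of cilium building, at 14.1 ± 1.35 FPKM, levels that differed by less than the spread between libraries. The highest mitotic member, Kif20a, ranked 7 at 13.2 ± 0.758 FPKM, and its level lay within the range of the Kif3a libraries. The other mitotic kinesins lay between 1.59 FPKM for Kif18a and 8.77 FPKM for Kif22.

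**Figure D1:**
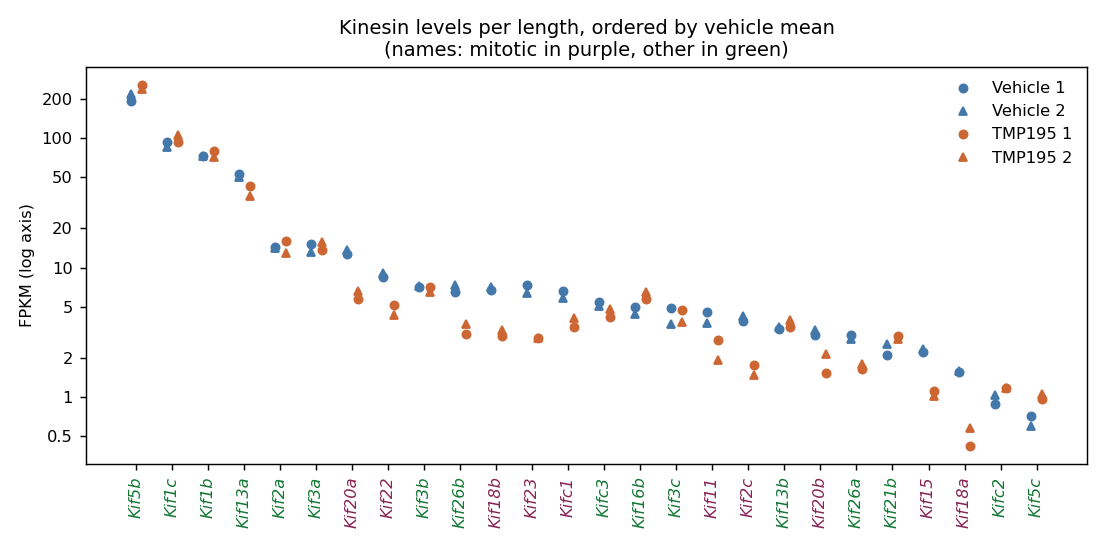
FPKM of 26 kinesin genes (log axis) in each of the 4 libraries, with genes ordered by their vehicle mean, circles and triangles for libraries 1 and 2 of a group, and mitotic names in purple. Kif5b is highest at 193 to 256 FPKM, and the TMP195 points lie below the vehicle points for all 10 mitotic genes.

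The summed FPKM of the 10 mitotic kinesins was 56.9 and 57.3 in the vehicle libraries and 27.8 and 28.4 in the TMP195 libraries. That of the 16 other kinesins with an FPKM was 479 and 492 with vehicle and 535 and 515 with TMP195. Neither sum overlapped between the groups. Mitotic members thus held 10.6% and 10.4% of all kinesin FPKM with vehicle, and 4.94% and 5.23% with TMP195. The sum of the other kinesins follows Kif5b more than any other member. Kif5b held 40.4% and 44.4% of that sum with vehicle and 47.9% and 46.2% with TMP195. A change shared by the other kinesins cannot be read from it. In a culture measured in bulk, fewer cells of a type and less RNA per cell cannot be told apart.

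Of the 30 kinesins tested, 15 were called in either direction, beside 20.3% of all genes tested. All 10 mitotic kinesins analysed were lower with TMP195 by limma at an adjusted p (Benjamini-Hochberg over 12689 genes) under 0.05, with values from 2.37e-07 to 0.00809. Over all genes tested, 10.3% were called lower. Their median log2 fold change was -1.10, on the scale of log2(value + 1), beside -0.01 for all genes. Both TMP195 libraries lay below both vehicle libraries for each of the 10, an order that 28.7% of all genes tested showed. As the division into mitotic and other genes was made with this comparison known, nothing is read from these counts.

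The first mitotic members to act build the spindle. Kif11, which slides microtubules apart to push the spindle poles away from each other, had values of 289 and 240.1 in vehicle libraries and of 178 and 124 in TMP195 libraries. Its lowest vehicle value lay above its highest TMP195 value, although each pair differed within itself, and the mean fell to 0.569 times the vehicle mean. RefSeq lists a pseudogene copy of Kif11, so its fragments may be divided between the copies. Kif15, which can keep the spindle bipolar when Kif11 fails, had 126 and 133 with vehicle and 63.3 and 57.5 with TMP195. Its pairs were tight and the ratio of means was 0.467. Kifc1, a motor that walks to the minus end and gathers the poles, had 193 and 172 with vehicle and 102 and 119.9 with TMP195. Among the mitotic members it showed the smallest decrease, with a log2 fold change of -0.72 (95% confidence interval -1.12 to -0.32).

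Other mitotic members act on chromosomes and on microtubule ends. Kif18a, which limits the length of the microtubules that hold chromosomes and so calms their movement, had values of 61.6 and 63.2 with vehicle and 16.7 and 23.0 with TMP195. It showed the largest decrease, to 0.318 times the vehicle mean, but also the lowest values, with 19 fragments in the lowest library. Its log2 fold change of -1.62 had a 95% confidence interval of -2.37 to -0.87, which overlaps that of Kifc1. Kif18b, its relative that shortens the astral microtubules, had 291 and 306 with vehicle and 129 and 145 with TMP195. The ratio of means was 0.459, and here too RefSeq lists a pseudogene copy. Kif2c, which removes tubulin at centromeres and so helps to correct wrong attachments, had 138 and 151 with vehicle and 63.3 and 53.7 with TMP195. Kif22, a motor on chromosome arms that pushes them to the spindle equator, had 221 and 240.1 with vehicle and 135 and 113 with TMP195. The ratio was 0.405 for Kif2c and 0.539 for Kif22, and neither gene's groups overlapped.

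The last mitotic members act when the cell divides in the middle. Kif20a, which brings the chromosomal passenger complex to the central spindle, had values of 485 and 526 with vehicle and 217 and 253 with TMP195. It had the smallest limma adjusted p of the 10 (2.37e-07) and a log2 fold change of -1.10 (SE 0.13). Kif23, which with Racgap1 bundles the microtubules of the midzone, had 322 and 278 with vehicle and 127 and 126 with TMP195. The TMP195 pair differed far less than the vehicle pair, and the ratio of means was 0.420. Kif20b, a motor of late cytokinesis, had 229 and 251 with vehicle and 116 and 162 with TMP195, a wide spread in the treated pair. Its log2 fold change was -0.80 (SE 0.18).

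**Figure D2:**
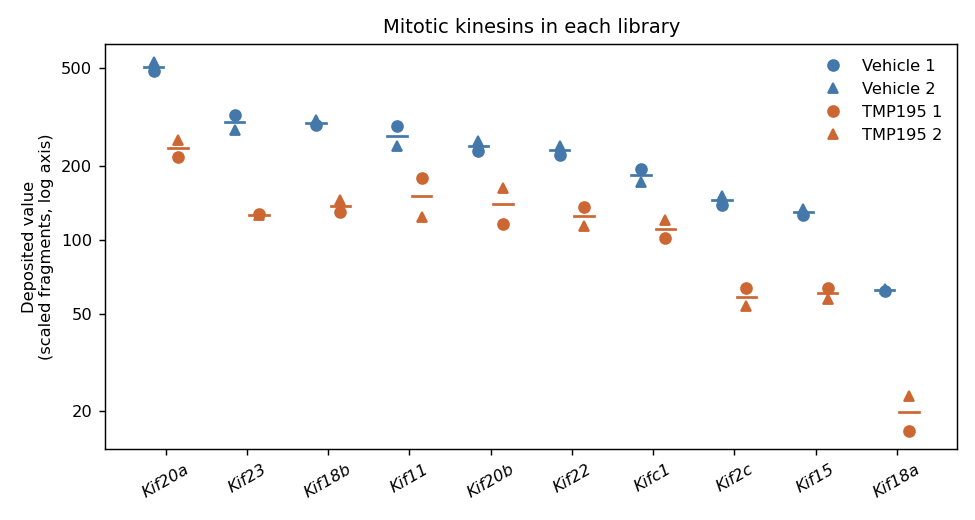
Deposited value (scaled fragments, log axis) of each of the 10 mitotic kinesins in each library, with bars at the group means. For every gene both TMP195 points lie below both vehicle points, from Kif20a at 485 to 526 with vehicle and 217 to 253 with TMP195 down to Kif18a at 61.6 to 63.2 and 16.7 to 23.0.

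The ratio of means of the 10 mitotic genes ran from 0.318 to 0.608, it was below 0.5 for 6 of them, and all 10 confidence intervals held the median of -1.10. When each library was left out in turn, the log2 fold changes stayed between -1.84 and -0.56. The adjusted p did not hold up as well. The number called lower was 6 without TMP195 1 and 0 without vehicle 1, vehicle 2 or TMP195 2, where the limma adjusted p of the 10 genes ran from 0.0626 to 0.306. Over all genes, the fits without 1 library called 0 to 322 higher and 0 to 406 lower. At an unadjusted p under 0.05 there were 7 without vehicle 1, 9 without vehicle 2 and 10 without either TMP195 library.

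Promoter sequences are shown because human and mouse genes of late cell division often carry a TTTGAA element near their start, bound by the LIN54 subunit of the complexes that silence or activate them, together with CCAAT boxes bound by NF-Y. RefSeq windows of build GRCr8, reaching from 250 bases before to 50 after a gene's start, were available for 24 of the 32 kinesin genes. TTTGAA was searched on both strands and found in 5 of 10 mitotic genes (Kif15, Kif20b, Kif22, Kif23 and Kifc1) and in 1 of 14 other kinesins (Kif26b), beside 18.3% of all 33469 windows. CCAAT, on both strands, was found in 6 of 10 mitotic genes and 4 of 14 others, beside 37.5% of windows. Both were present in 4 of 10 mitotic genes and again in Kif26b among the others, beside 7.41% of windows, and no match of the first overlapped a match of the second. For contrast GGGCGG, the letters that Sp1 prefers, was in 6 of 10 mitotic genes and 12 of 14 others, beside 33.1% of windows. These matches are a description of letters and not of bound sites, and windows without TTTGAA and CCAAT, such as those of Kif18a and Kif2c, show only that these letters are not in them.

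The windows of 3 mitotic kinesins that hold both motifs are given from 5′ to 3′ on the gene's strand. That of Kif26b, the only one with both among the 14 other kinesins that had a window, is given too. The mitotic Kif20b also holds both but is not shown. Its TTTGAA matches begin 116 bases before the start and at positions 2 and 8 counted from the start. Capitals mark TTTGAA and CCAAT or their reverse complements TTCAAA and ATTGG. In Kif22 (chr1:191080829-191081128, minus strand) the TTTGAA match begins 16 bases before the start, in Kif23 (chr8:71320535-71320834, minus strand) 79, in Kifc1 (chr20:5000679-5000978, plus strand) 22 and in Kif26b (chr13:92815177-92815476, plus strand) 9.
Kif22: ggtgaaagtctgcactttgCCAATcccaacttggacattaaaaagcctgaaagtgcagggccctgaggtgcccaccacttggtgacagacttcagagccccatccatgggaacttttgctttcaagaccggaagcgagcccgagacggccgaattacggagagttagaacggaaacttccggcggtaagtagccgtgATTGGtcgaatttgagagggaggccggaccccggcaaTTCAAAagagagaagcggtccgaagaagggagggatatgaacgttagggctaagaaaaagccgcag
Kif23: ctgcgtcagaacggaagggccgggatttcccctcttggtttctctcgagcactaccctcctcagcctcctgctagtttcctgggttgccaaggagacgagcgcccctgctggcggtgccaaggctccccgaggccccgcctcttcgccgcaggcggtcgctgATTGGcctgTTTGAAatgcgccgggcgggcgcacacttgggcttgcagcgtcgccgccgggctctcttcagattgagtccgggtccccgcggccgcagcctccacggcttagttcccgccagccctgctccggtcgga
Kifc1: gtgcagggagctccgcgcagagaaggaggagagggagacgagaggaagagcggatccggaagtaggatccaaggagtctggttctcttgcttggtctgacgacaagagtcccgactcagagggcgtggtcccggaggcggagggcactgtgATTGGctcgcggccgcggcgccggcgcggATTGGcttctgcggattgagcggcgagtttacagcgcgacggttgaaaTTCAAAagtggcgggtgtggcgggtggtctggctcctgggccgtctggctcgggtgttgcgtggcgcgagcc
Kif26b: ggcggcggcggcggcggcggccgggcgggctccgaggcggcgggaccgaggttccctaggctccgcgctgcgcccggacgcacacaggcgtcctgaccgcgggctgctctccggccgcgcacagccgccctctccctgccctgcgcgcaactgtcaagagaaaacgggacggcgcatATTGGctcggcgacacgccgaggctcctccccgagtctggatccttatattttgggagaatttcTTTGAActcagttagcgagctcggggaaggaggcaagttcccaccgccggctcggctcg

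Among the 22 other kinesins, 20 were tested with limma. At the same threshold 2 of them rose, 3 fell and 15 did not pass. The share called over all genes was 9.93% for higher and 10.3% for lower. The median log2 fold change was 0.06, beside -0.01 for all genes. Both TMP195 libraries lay above both vehicle libraries for 6 of the 20, beside 28.0% of all genes tested. They lay below both for 4 of the 20, beside 28.7%.

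Kif26b and Kif26a, atypical kinesins better known from signalling than from transport, were the called members with the largest decreases among the other kinesins. In mice Kif26b is needed for the adhesion of kidney precursor cells and Kif26a for the wiring of the gut's neurons. Kif26b had values of 659 and 740.4 with vehicle and 311 and 371 with TMP195. It fell to 0.488 times the vehicle mean, within the range of the mitotic genes, with a limma adjusted p of 9.97e-08. Kif26a had 235 and 222 with vehicle and 129 and 142 with TMP195, and fell with a log2 fold change of -0.75 (SE 0.17). Kif13a, the receptor carrier, had 4808 and 4611 with vehicle and 3873 and 3273 with TMP195. It fell to 0.759 times the vehicle mean, a log2 fold change of -0.40 (95% confidence interval -0.56 to -0.25), a smaller decrease than the point estimate of any mitotic member. RefSeq lists a pseudogene copy of Kif13a. Its closest relative Kif13b, which carries membrane scaffold proteins, did not pass, with a log2 fold change of 0.13 (95% confidence interval -0.18 to 0.43), and the difference between the 2 genes was not tested.

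Kif5b and Kif16b rose. Kif5b had values of 7317 and 8253 with vehicle and 9691 and 8995 with TMP195. It was 1.20 times as high with TMP195 by means, with 0.26 as the log2 fold change (SE 0.07) and 0.00768 as the limma adjusted p, and the groups did not overlap although the gap was smaller than the vehicle spread. Kif16b, which moves early endosomes outward, had 364 and 320.2 with vehicle and 417 and 476 with TMP195. On the log2 scale it rose by 0.38 (95% confidence interval 0.12 to 0.64), with a limma adjusted p of 0.0304 that became 0.0684 once low genes were no longer filtered out. Kif5c, a neuronal heavy chain of conventional kinesin, had 35.1 and 29.5 with vehicle and 47.5 and 51.8 with TMP195. Its groups did not overlap either, but at this depth its log2 fold change of 0.61 (SE 0.34) did not pass, with a limma adjusted p of 0.234. Kif5a, the remaining neuronal heavy chain, had 44.6 and 22.1 with vehicle and 33.4 and 37.4 with TMP195, so its groups overlapped.

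The other 2 highly expressed carriers did not pass. Kif1b had values of 5925 and 5942 with vehicle and 6492 and 5828 with TMP195, and its log2 fold change of 0.05 had a 95% confidence interval of -0.09 to 0.20. Kif1c, of which RefSeq also lists a pseudogene copy, had 5011 and 4604 with vehicle and 4986 and 5684 with TMP195, with a log2 fold change of 0.15 (95% confidence interval -0.00 to 0.30, limma adjusted p = 0.175). Kif2a, which can shorten microtubules in resting and in dividing cells, had 815 and 804 with vehicle and 915 and 740.4 with TMP195. Its TMP195 values lay on both sides of the vehicle pair, and its log2 fold change was 0.02 (95% confidence interval -0.19 to 0.23). Kif2a and the mitotic Kif2c are of the same family of microtubule-shortening motors, and the difference between their changes was not tested.

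The motors of cilium building moved little. Kif3a, Kif3b and Kif3c had log2 fold changes of 0.06, -0.08 and 0.00, with limma adjusted p from 0.698 to 0.993, and Kifap3, which joins Kif3a and Kif3b to cargo, had 0.08 (limma adjusted p = 0.634). Of the other kinesins with a vehicle mean of 100 or more, 9 did not pass, with log2 fold changes between -0.22 for Kifc3, a minus-end motor at cell junctions, and 0.31 for Kif21b, a motor known from neurons. Kifc2, also known from neurons, had 37.0 and 43.2 with vehicle and 49.2 and 48.9 with TMP195 and did not pass. Kif9, Kif19 and Kif27, which serve cilia and flagella, had values from 0 to 16.3, and a difference was not detectable at this depth. Kif12 and Kif2b were listed at 0 in all 4 libraries and were not tested.

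**Figure D3:**
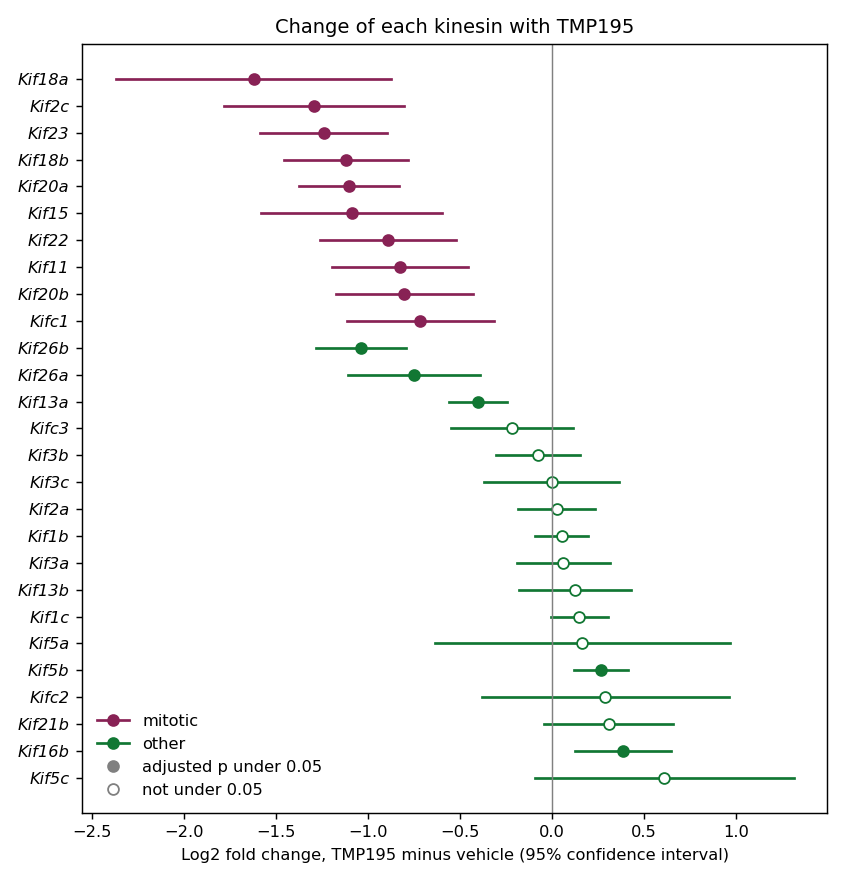
Log2 fold change (TMP195 minus vehicle, on the log2(value + 1) scale) of the 27 kinesins with a vehicle mean of 20 or more, with 95% confidence intervals from limma, filled where the adjusted p was under 0.05. The 10 mitotic genes lie between -1.62 and -0.72, Kif26b at -1.04 and Kif26a at -0.75 lie among them, and the highest called gene is Kif16b at 0.38.

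The authors' deposited table of FPKM, with an unadjusted p-value for each gene, gives a further view of these libraries. The authors' deposited sheet of lower genes held 7 of the 10 mitotic kinesins, beside 5.84% of the 10673 genes in the table. In the authors' deposited table Kif11, Kif20b and Kif23 were in neither sheet, with p-values of 0.0895, 0.0995 and 0.0806. Among the other kinesins, the authors' deposited sheet of lower genes held Kif26a and Kif26b, and that of higher genes (5.57% of the table) held Kif5c with a ratio of 1.54. In the authors' deposited table Kif5b, Kif13a and Kif16b had p-values of 0.126, 0.137 and 0.112 and were in neither sheet.

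Transcripts of proteins that work with the mitotic kinesins were counted in the same way. Of 20 listed spindle and cytokinesis partners 16 were tested. Of these 16 spindle and cytokinesis partners, 14 fell, 0 rose and 2 did not pass, beside 10.3% of all genes lower and 9.93% higher, with a median log2 fold change of -0.93. Cenpf, a kinetochore protein, had values of 725 and 735 with vehicle and 348 and 420.1 with TMP195. Plk1, a mitotic kinase, had 457 and 383 with vehicle and 179 and 207 with TMP195. Prc1, which bundles midzone microtubules and receives Kif20a, had a log2 fold change of -0.94, and Ndc80, which ties chromosomes to microtubules, one of -1.55. Racgap1, the partner of Kif23, fell by 0.94 on the log2 scale. Aurka, a spindle pole kinase, had a log2 fold change of 0.07 and Cdca8, a passenger complex subunit, one of -0.55, and neither passed. Per 100 FPKM of these partners, the mitotic kinesins summed to 42.3 and 44.6 with vehicle and 41.7 and 37.6 with TMP195.

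Of 13 tested regulators of mitotic genes, 4 fell (10.3% of all genes), 1 rose (9.93% of all genes) and 8 did not pass, with a median log2 fold change of -0.09. Mybl2, which activates genes of late cell division, had values of 321 and 335 with vehicle and 143 and 124 with TMP195, a log2 fold change of -1.30. Foxm1, which activates them with it, had 433 and 379 with vehicle and 239 and 317 with TMP195, and fell by 0.56 on the log2 scale. Rbl2 and Rbl1, pocket proteins that help to silence genes of the cycle in resting cells, had -0.36 and -0.60, and Lin37, which silences them with it, had 0.35, each a log2 fold change past the threshold. The calls of Rbl2 and Rbl1 ended when low values were not filtered. Lin54, which reads TTTGAA, had 0.05, and the NF-Y subunits Nfya, Nfyb and Nfyc had 0.03, 0.07 and -0.22, and none of these 4 passed.

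Partners of the transport motors were called at a share near that of all genes, of which 9.93% were higher, 10.3% lower and 20.3% called in either direction. Of 19 tested subunits and cargo adaptors of conventional and ciliary kinesins, 3 rose, 1 fell and 15 did not pass, with a median log2 fold change of 0.07. Spag9 (0.28) and Mapk8ip3 (0.35), scaffolds that link cargo to kinesin and dynein, and Arl8b (0.24), which calls kinesin to lysosomes, rose, each by the log2 fold change given. Map7d1, a microtubule protein that recruits conventional kinesin, fell (-0.19, limma adjusted p = 0.0466), and this call and that of Mapk8ip3 ended without the filter on low values. The light chain Klc1 had 0.02 and the mitochondrial adaptors Trak1 and Trak2 had 0.18 and -0.03, and none of the 3 passed. Of 24 genes of dynein and dynactin, the motor that walks the opposite way, 3 rose and 1 fell, also near the 20.3% of all genes called, with a median log2 fold change of 0.01. Dynll2 (0.30), Actr10 (0.30) and Ndel1 (0.26) rose and Actr1a (-0.22) fell, of which Ndel1 and Actr1a ended without that filter, while the heavy chain Dync1h1 had 0.05 and did not pass.

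**Figure D4:**
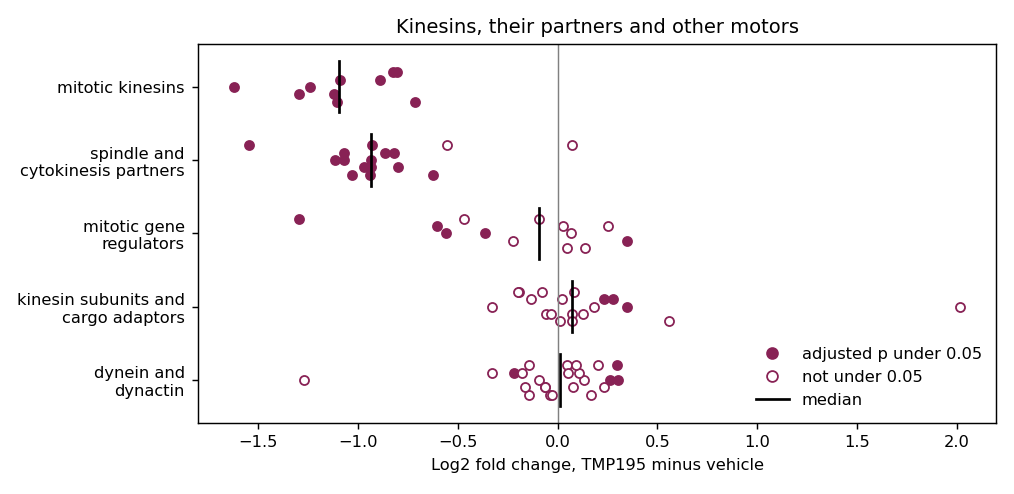
Log2 fold change of each tested gene in 5 lists (TMP195 minus vehicle), filled where the limma adjusted p was under 0.05, with a bar at the list median. The medians are -1.10 for mitotic kinesins, -0.93 for spindle and cytokinesis partners, -0.09 for mitotic gene regulators, 0.07 for kinesin subunits and adaptors and 0.01 for dynein and dynactin.

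Markers of other cell types were counted beside a share over all genes of 10.3% called lower and 9.93% called higher. Sums of FPKM are over the markers that have one. The summed FPKM of 12 fibroblast markers was 2812 and 2912 with vehicle and 1898 and 2015 with TMP195, and 7 of 12 fell. S100a4 was the largest part of that sum, at 1343 and 1479 FPKM with vehicle and 812 and 890 with TMP195. The others that fell were Col3a1, Col1a1, Tcf21, Mfap5, Fbln1 and Pdgfra. The 5 that did not pass were Lum, Thy1, Dcn, Ddr2 and Postn, with log2 fold changes of -0.42, -0.47, -0.06, -0.05 and 0.12. Of 9 smooth muscle and mural markers 5 fell, and the summed FPKM of 8 of them was 1603 and 1671 with vehicle and 1315 and 1341 with TMP195. Des, the most abundant of these 8, had 662 and 735 FPKM with vehicle and 680 and 647 with TMP195, and did not pass. The 5 that fell were Acta2, Cspg4, Tagln, Smtn and Cnn1. Libraries of a whole culture do not show which cells, heart muscle cells included, made Des or the others of this list. Of 9 endothelial markers 2 fell, and 5 of them had a low summed level of 10.7 and 12.1 FPKM with vehicle and 6.56 and 7.07 with TMP195. Of 7 macrophage markers 0 passed at an adjusted p or at an unadjusted p under 0.05 with limma, the one tool run, and 5 of them had sums of 20.4 and 19.4 FPKM with vehicle and 24.1 and 18.8 with TMP195. Col1a2 and Cldn5 were listed at 0 in every library, although Col1a1, the partner chain of Col1a2, had values between 47643 and 69970.3. Of 12 heart muscle markers 1 rose and 2 fell, with a median log2 fold change of -0.06. Their sums overlapped between the groups, at 40872 and 43290.5 FPKM with vehicle and 41068 and 43612 with TMP195. These sums follow Myl2 more than any other marker, at 14460 and 15824 FPKM with vehicle and 15564 and 17720 with TMP195. Tnnt2, the next in level, had 8155 and 7856 FPKM with vehicle and 7222 and 7689 with TMP195. Neither Myl2 nor Tnnt2 passed. The heart muscle marker that rose was Tnni3 (log2 fold change 0.28), and those that fell were Ryr2 (-0.40) and Myh7 (-0.41). The part of these other cells in the lower mitotic kinesins was not tested.

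**Figure D5:**
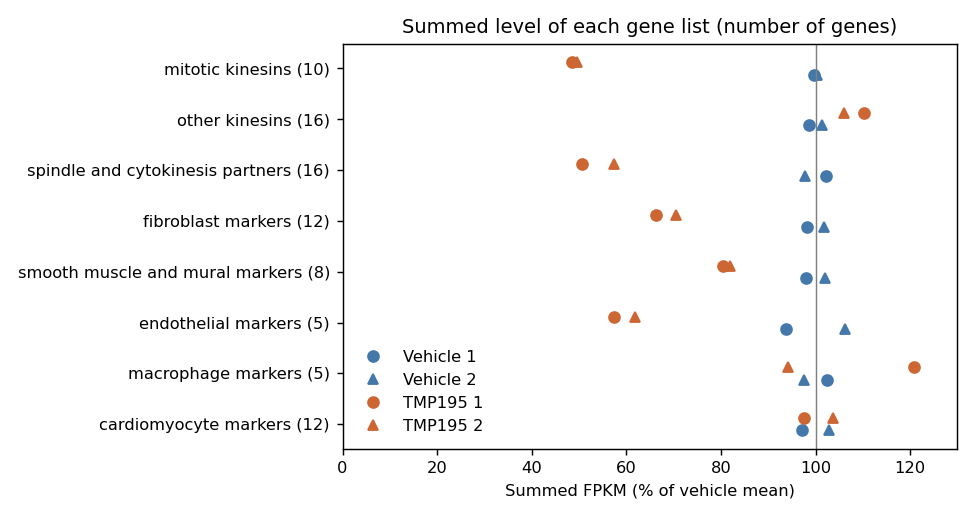
Summed FPKM of each gene list in each library, as a percentage of the mean of the 2 vehicle libraries, with the number of genes in parentheses. With TMP195 the mitotic kinesins lie at 48.6 and 49.7% and the other kinesins at 110.2 and 106%. With TMP195 the fibroblast markers lie at 66.3 and 70.4% and the heart muscle markers at 97.6 and 104%. A sum follows its most abundant genes, such as Kif5b for the other kinesins. Among the marker lists these are S100a4 for fibroblast, Des for smooth muscle and mural and Myl2 for heart muscle markers.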

How the data were processed

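Libraries were made with an Ovation RNA-Seq kit from column-purified total RNA, per the labels' protocols. The submitters' processing notes name Cufflinks, with version, aligner and build not given in the sources used here. In the main table the deposited values are a signal, estimated fragments scaled by the authors, since dividing by a step of 0.879 to 1.05 per library left 99.27 to 99.46% of values (10000 fragments or fewer) within 0.1 of a whole fragment. The FPKM values, p-values and ratios are those the authors deposited.

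The genes whose mean reached 1 were fitted with limma 3.58.1 in R 4.3.3 (intensity trend, treatment as the only term) on log2(value + 1), with Benjamini-Hochberg adjustment over 12689 genes and a threshold of 0.05. Replicates were checked and were not duplicates (chi-square per gene 4.90 and 5.98). Members and lists were chosen with earlier results of these data known. The genes named were all mitotic kinesins, the other kinesins past the threshold, the 5 highest other kinesins by vehicle FPKM and 4 per list by smallest p. Further genes were named as examples after their values were seen. Promoter windows are RefSeq's, of build GRCr8, matched by symbol. Alternatives changed the scaling, pseudocount, filter, model, block or libraries. Emr1 was matched as the older name of the macrophage marker Adgre1. The table gives no strand, so overlapping genes cannot be told apart.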

Additional observations from a re-analysis of the deposited data

How the results depend on the processing

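With 9 alternatives to the scaling, pseudocount, filter, model or block, every mitotic kinesin that was tested was lower at an adjusted p under 0.05, and so were Kif13a, Kif26a and Kif26b. Without a filter on low values 1 other kinesin was higher (Kif16b was lost) and 2 regulators of mitotic genes fell, and with only genes of a mean of 100 or more 2 of them rose. Among subunits and adaptors 5 rose with a mean of 100 or more, and 0 fell without the filter, with TMM scaling, with a pseudocount of 0.1 and with the replicate block. Of dynein and dynactin 2 fell with limma-voom, with scaling by library total and with a mean of 10 or more or of 100 or more, and 0 without the filter or with the block. Of the named partners, Map7d1, Ndel1, Actr1a, Mapk8ip3, Rbl2 and Rbl1 lost their call under at least 1 of these alternatives. The cause was not tested.

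The log2 fold change of Kif2a changed sign with limma-voom (-0.0018) and scaling by library total (-0.0017), and that of Kif3c with TMM scaling (0.0107). Without 1 library, the log2 fold change ran from -0.0257 to 0.13 for Kif1b, from -0.13 to 0.18 for Kif2a, from -0.76 to 0.71 for Kif27, from -0.0405 to 0.16 for Kif3a, from -0.20 to 0.19 for Kif3c and from -0.33 to 0.65 for Kif5a, none of which passed. Leaving out each library gave 0 to 322 genes higher and 0 to 406 lower in all, 0 to 6 mitotic kinesins lower, 0 higher and 0 to 2 lower among the other kinesins, 0 to 6 spindle partners lower, and 0 to 1 regulators lower. It gave 0 in both directions for adaptors and dynein. The medians ran from -1.13 to -1.05 for mitotic and from 0.03 to 0.19 for other kinesins. Each library was also left out among genes with a mean of 100 or more, an alternative chosen after seeing the data. Those fits took the variance of each gene wholly from the trend across genes. Their calls do not measure the spread of a kinesin itself and are not given. The lone library of a group is there assumed to vary like the other group.

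The replicate numbers share no stated culture or batch, so the main fit did not treat the libraries as pairs. Deviations of same-numbered libraries correlated at -0.06, a value that cannot show how the cultures were set up. With the replicate number as a block, 10 mitotic kinesins were lower. The planned count test was not run, because the values are not all whole fragments. Depth limits the members with values under 50.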
